A study of Mus musculus with 8 samples.

Results

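The cells described here were 670 keratinocytes of mouse dorsal skin, named for Wfdc18, Pthlh and Krt6a, which are among the 8 genes that chose them. They were chosen by their own UMI counts (unique molecular identifiers, each standing for 1 captured RNA molecule). A cell was a member when it held at least 4 of the 8 genes Wfdc18, Pthlh, Krt6a, S100a1, Kalrn, Pdzrn3, Bpifc and Krt75, fewer than 3 of 5 inner root sheath keratins, fewer than 4 of 7 genes of a contractile follicle epithelium, and no UMI of the leukocyte gene Ptprc. Of 26231 barcodes in 8 libraries, 11118 passed the limits on quality (between 500 and 4000 genes, no more than 20000 UMIs, and mitochondrial UMIs of 10% or less), and 670 of these were members. All mice were female BALB/c of 14 to 16 weeks, with 4 mice injected under the skin with PBMCsec, the secretome of irradiated human peripheral blood mononuclear cells, and 4 injected with vehicle. Each mouse gave 1 library from a tissue biopsy that was dissociated to single cells. The labels give neither the time point nor the control solution, and no wounding is named in them, so the libraries were compared by treatment alone. The library numbers 1 to 4 in each group held 27786595, 18578561, 33908551 and 37880651 UMIs after PBMCsec and 14753926, 16460623, 33333619 and 30494307 UMIs after vehicle.

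The companion layer is the single sheet of flat keratinocytes that lies between the inner and the outer root sheath of the hair follicle, and it moves with the growing hair. Keratin 75, encoded by Krt75, is the keratin that histology uses to mark it, while keratin 6 is made by the companion layer, the inner bulge and wounded epidermis. Wfdc18 encodes a small secreted protein with a whey acidic protein domain, and Pthlh encodes parathyroid hormone-related protein, a secreted signal of the follicle. Krt6a and Krt75 encode type II keratins, S100a1 a calcium-binding protein, Kalrn a guanine nucleotide exchange factor, Pdzrn3 a ubiquitin ligase and Bpifc a lipid-binding protein of the BPI fold family.

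Krt75 went partly against a companion-layer name. It was found in 83 of the 670 members (12.4%, exact 95% interval 9.99 to 15.1), against 19.9% of 417 inner root sheath cells, 6.32% of 2295 epithelial cells of no finer class and 1.27% of 1181 T cells, which should lack it. The median depth was 9180 UMIs in the members, 12434 in the inner root sheath class, 8587 in the other epithelial cells and 3393 in the T cells. When each cell was thinned to 2000 UMIs, which left out 4 members, Krt75 was found in 5.41% of the members, 8.23% of the inner root sheath cells and 0.579% of the T cells. The members held 31.9% of all Krt75 UMIs in cells past the limits, while they held 90.6% of the Wfdc18 UMIs, 62.2% of the Pthlh UMIs and 58.8% of the Krt6a UMIs. The cells are therefore called by their leading genes below. These shares describe the choice of the cells and carry no test, and intervals and floors cover counting error alone.

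The other genes of the rule were found in more of the members. S100a1 was found in 97.6% of them, Pdzrn3 in 93.0%, Kalrn in 79.1%, Krt6a in 76.4%, Pthlh in 73.9%, Bpifc in 59.0% and Wfdc18 in 53.0%. S100a1 and Pdzrn3 were also found in 74.7% and 78.2% of the 596 cells of the contractile follicle epithelium, so these genes were shared between both kinds of cell. Wfdc18 was the narrowest of the 8, with 2.68% of the contractile cells and at most 0.959% of every other class shown in the plot of detection by class. The same gene was found in 0.169% of T cells.

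**Figure D1:**
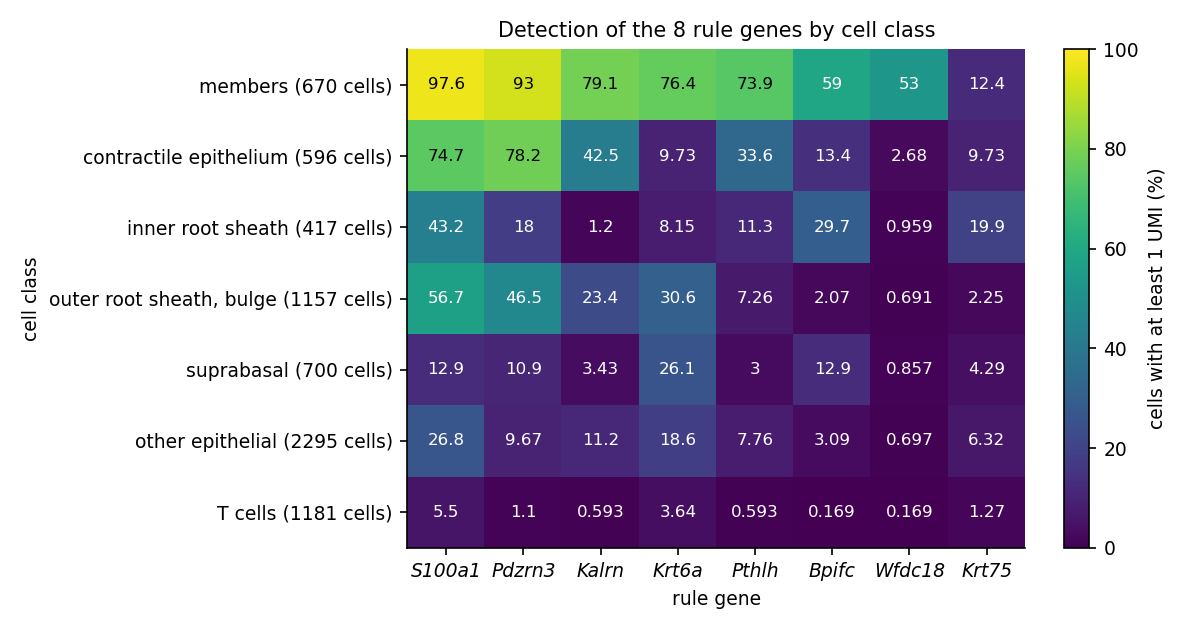
Percentage of cells with at least 1 UMI of each of the 8 genes that chose the members (columns) in 7 cell classes (each line names its number of cells). Wfdc18 reached 53.0% of the members and 2.68% of the contractile cells, while Krt75 was found in 12.4% of the members and 19.9% of the inner root sheath cells.

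Wfdc18 lies at chr11:83709015-83711348 (mm10, plus strand) and had the highest ratio of the 8 rule genes between members and other epithelial cells. In CPM, the counts of a gene per 1000000 UMIs summed over the members of a library, Wfdc18 was at 250, 114, 282 and 194 in PBMCsec libraries 1 to 4, and at 120, 329 and 279 in vehicle libraries 2, 3 and 4. Vehicle library 1 held 2 members and is left out of values per library. All other epithelial cells of the same 7 libraries had a mean of 1.40 CPM and at most 3.33. The promoter of Wfdc18 is shown because this gene names the cells. It is given from 250 bases before to 50 bases after the RefSeq start (GRCm38.p6, chr11:83708754-83709053, plus strand, 5′ to 3′), with the letters TATAAA in capitals, 31 bases before the start. The letters TATAAA, searched on both strands, were in 13.6% of 32851 mouse promoters of this length and in 1 of the 7 promoters found for the 8 genes of the rule. No sequence of Krt6a was in the table used.
Wfdc18: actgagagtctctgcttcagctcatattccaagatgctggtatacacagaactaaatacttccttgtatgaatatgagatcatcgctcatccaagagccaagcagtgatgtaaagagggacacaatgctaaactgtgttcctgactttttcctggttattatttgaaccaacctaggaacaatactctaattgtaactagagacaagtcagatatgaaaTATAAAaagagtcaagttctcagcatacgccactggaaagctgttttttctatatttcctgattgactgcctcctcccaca

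Outside the rule, the members were compared with all other epithelial cells in the 7 libraries with at least 10 members, as a description with no test, since the cells were chosen by their own counts. Of 3650 genes at 50 CPM or more, 769 were higher in the members in each of the 7 libraries and 560 were lower in each. Genes were ranked by their ratio after 10 CPM was added to both levels, which holds back genes of low level such as Rnase12. The highest such ratio belonged to Mgat4a, which encodes a glycosyltransferase that branches N-glycans, with 164 CPM in the members (117 to 207 over 7 libraries) and 9.0 CPM in the other epithelial cells (7.12 to 11.9). Pfn2, a profilin that binds actin, had 297 CPM against 32.6. Sorbs2, an adaptor of the actin cytoskeleton, had 95.7 CPM against 5.23. Rnase12, a member of the ribonuclease A family, had 58.5 CPM against 0.67, and 93.5% of all Rnase12 UMIs lay in the members. Gja1, which encodes the gap junction protein connexin 43, had 3722 CPM (2936 to 4716) against 825 (493 to 1192).

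The other leading genes fell into several functions. Lrat, which makes retinyl esters from retinol, had 67.0 CPM against 6.92, and the water channel gene Aqp5 had 71.2 against 7.62. The aminopeptidase gene Lap3 had 540 CPM against 91.9, and Cmah, which hydroxylates sialic acid, had 492 against 96.3. The membrane mucin gene Muc15 had 104 CPM against 13.1, and the transcription factor gene Nfe2l3 had 130 against 18.5. The remaining leading genes were Ppfibp2, BC016579, Sytl2, Dclk1, Myof, Fads3, Slc22a23, Tenm4 and Pdrg1, with log2 ratios from 2.14 to 2.42 (prior of 10 CPM). All 20 genes were higher in the members than in the contractile follicle epithelium in each of the 5 libraries with enough cells of both. Against the inner root sheath the count was 17 of 20 (not Sytl2, Nfe2l3 and Lrat, in 5 libraries), against the outer root sheath and bulge class 18 of 20 (not Lrat and Fads3, in 7 libraries), and against the suprabasal class 19 of 20 (not Muc15, in 6 libraries). The plot of the 20 leading genes shows that the points of the members lay above the range of the other epithelial cells, except for Lrat and Fads3 in PBMCsec library 1.

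**Figure D2:**
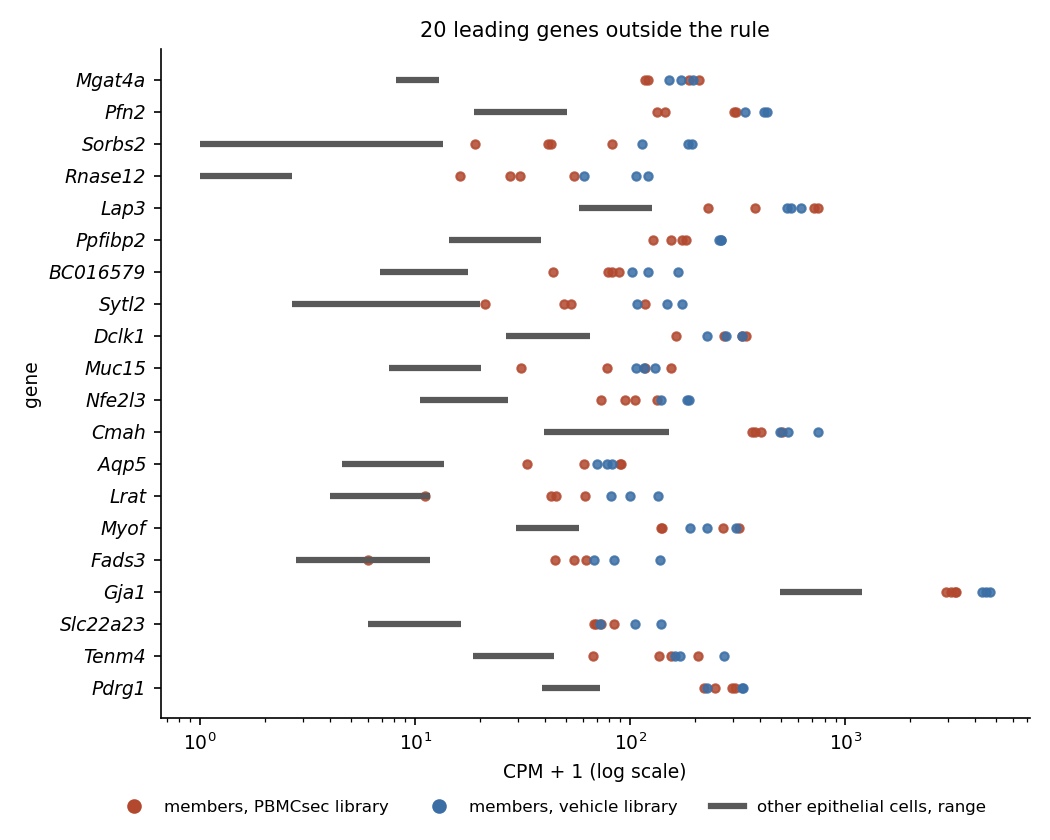
CPM + 1 on a log axis for the 20 genes outside the rule with the highest ratio of members to other epithelial cells (10 CPM added to both). Points are the members of the 4 PBMCsec and the 3 vehicle libraries with at least 10 members, and the grey bar spans the other epithelial cells of the same libraries; Gja1, for example, was at 2936 to 4716 CPM in the members and 493 to 1192 in the others.

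The genes lowest in the members mark other layers of the skin. The epidermal differentiation keratin genes Krt1 and Krt10 had 14.0 and 43.5 CPM in the members and 768 and 1134 CPM in the other epithelial cells. Krt77, a keratin of sweat ducts and suprabasal epidermis, had 4.89 CPM against 199. Krtdap and Calm4, genes of differentiating epidermis, had 41.6 against 776 CPM and 20.9 against 443 CPM. Cst6, a cysteine protease inhibitor of the cornified layers, had 132 CPM (37.3 to 423) against 2106. Krt25, an inner root sheath keratin, had 5.73 CPM against 305, which follows in part from the rule. Serpinb2, Ly6d and Ndufa4l2 completed the 10 lowest. Sbsn, which encodes the secreted protein suprabasin, went the other way, with 1737 CPM in the members and 486 in the other epithelial cells, higher in all 7 libraries.

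Marker lists of neighbouring layers gave a mixed picture. Of 10 companion and inner bulge genes outside the rule, 5 were higher in the members in all 7 libraries and 1 was lower. Krt17, a keratin of the follicle and of wounded epidermis, had 8607 CPM against 2191, and Gjb2 and Gjb6, the connexin 26 and 30 genes, had 1136 against 446 CPM and 88.8 against 50.4 CPM. Krt16, a partner of keratin 6 in wounds, had 174 against 160 CPM and was higher in 3 of 7 libraries. Krt6b had 3.49 against 22.2 CPM. In the wound and stress list of 15 genes, 2 (Krt6a, which chose the members, and Krt17) were higher in all 7 libraries and 3 (Il1rn, Areg and Hbegf) were lower in all 7. The antimicrobial genes S100a8 and S100a9 were at 2.36 and 0.283 CPM, and Sprr1a was at 70.7 against 208 CPM.

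Junction genes were mostly higher in the members. Of 19 desmosome and junction genes, 10 were higher in the members in all 7 libraries. Dsp, which encodes the desmosomal linker desmoplakin, had 2568 CPM against 1179, the desmocollin gene Dsc3 had 980 against 537 and the desmoglein gene Dsg3 had 168 against 59.97. Across all genes at 50 CPM or more the same count was 769 of 3650, and nothing is called particular to the list from this.

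Genes of the outer root sheath and bulge were divided. Sox9, a transcription factor of the follicle stem cell lineage, had 909 CPM in the members and 272 in the other epithelial cells, Lhx2 had 263 against 126 and Id4 had 550 against 239, each higher in 7 of 7 libraries. Cd34 and Lgr5, markers of bulge and lower outer root sheath cells, were lower in 7 of 7, with 57.7 against 101 CPM and 55.1 against 95.5 CPM. Col17a1 and Itga6, which attach basal cells to the basement membrane, were also lower in 7 of 7 libraries, with 346 against 893 CPM and 148 against 318 CPM. The basal keratin genes Krt5 and Krt14 had 5165 against 3625 CPM and 9004 against 6481 CPM. All 15 cell cycle genes had a lower mean in the members, 9 of them lower in all 7 libraries, and Mki67 was at 27.5 against 86.1 CPM.

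Pthlh encodes the secreted signal that names these cells. It was at 325, 354, 409 and 617 CPM in PBMCsec libraries 1 to 4 and at 693, 452 and 743 CPM in vehicle libraries 2 to 4, against 37.3 CPM in the other epithelial cells. The receptor gene Pth1r was at 0 in the members of all 7 libraries and at 2.16 CPM in the other epithelial cells. Of 25 genes for secreted signals of the follicle, 1 (Bmp6, 9.11 against 3.39 CPM) was higher in the members in all 7 libraries and 12 were lower in all 7, among them Wnt3, Wnt4, Wnt10a and Igfbp3. Shh was at 0 in the members. Of 10 genes of the whey acidic protein family, Wfdc18 was at 224 CPM, Wfdc3 at 33.4 CPM and Slpi at 16.4 CPM, and Wfdc5, Wfdc15b and Wfdc21 were at 0. Among 11 S100 genes, S100a6, S100a14, S100a16 and the rule gene S100a1 were higher in all 7 libraries, with S100a6 at 7993 against 2418 CPM. S100a10 and S100a4 were lower in all 7, with 475 against 846 CPM and 63.3 against 150 CPM.

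RNA of other cell types was low in the members. The 7 fibroblast markers summed to 119 CPM (36.0 to 469), and each was lower than in the other epithelial cells in all 7 libraries. Their highest gene was Col3a1 at 36.4 CPM, and PBMCsec library 4 held the highest sum (469 CPM). The 7 T cell markers summed to 38.3 CPM, of which Trbc2 made 36.7, and Cd2 was at 0. The 7 myeloid markers summed to 23.3 CPM with Cd74 the highest at 8.77, the 5 endothelial markers to 5.88 CPM with Egfl7 the highest at 3.30, and the 6 melanocyte markers to 19.98 CPM with Mitf at 13.4. The red cell genes summed to 31.4 CPM, with Hbb-bs at 17.2. Of 5 smooth muscle and pericyte markers, Des was at 0 and Notch3, which keratinocytes also express, made 70.7 of 73.8 CPM. In all, 78 barcodes occurred in more than 1 library, 3 members carried such a barcode, and no barcode was a member in more than 1 library.

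The members were not uniform. Of the 670 cells, 210 held exactly 4 of the 8 genes, 126 held 5, 171 held 6, 153 held 7 and 10 held all 8, and 439 epithelial cells just outside the rule held 3. Median depth was 8599 UMIs in cells with 4 genes and 9743 in cells with 7, and the Spearman correlation of depth with the number of rule genes was 0.149 over the 670 members, as a description. The summed level of Krt14 was 5345 CPM in cells with 4 rule genes and 14499 CPM in cells with 7, Krt17 was at 6410 and 12683 CPM, and Gja1 at 2252 and 4977 CPM. Krt15, a keratin of bulge and basal cells, went from 3581 to 537 CPM, Col17a1 from 792 to 5.79 CPM, Cd34 from 126 to 13.5 CPM and Lgr5 from 115 to 14.2 CPM. Cells with 3 rule genes had 4444 CPM of Krt15 and 1100 CPM of Col17a1, close to the values at 4. Rnase12, which no rule used, was at 5.07 CPM in cells with 3 genes, 32.3 with 4, 69.0 with 5, 84.0 with 6 and 132 with 7. The 10 cells with all 8 genes did not continue all of these series. They had 91.2 CPM of Rnase12, 8843 of Krt14, 1185 of Krt15 and 119 of Cd34, which turned back. Col17a1 continued its fall, to 0 CPM, while Krt17 was at 12599, Gja1 at 4431 and Lgr5 at 18.2 CPM. After thinning to 2000 UMIs, 299 of 666 members still held at least 4 of the 8 genes.

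**Figure D3:**
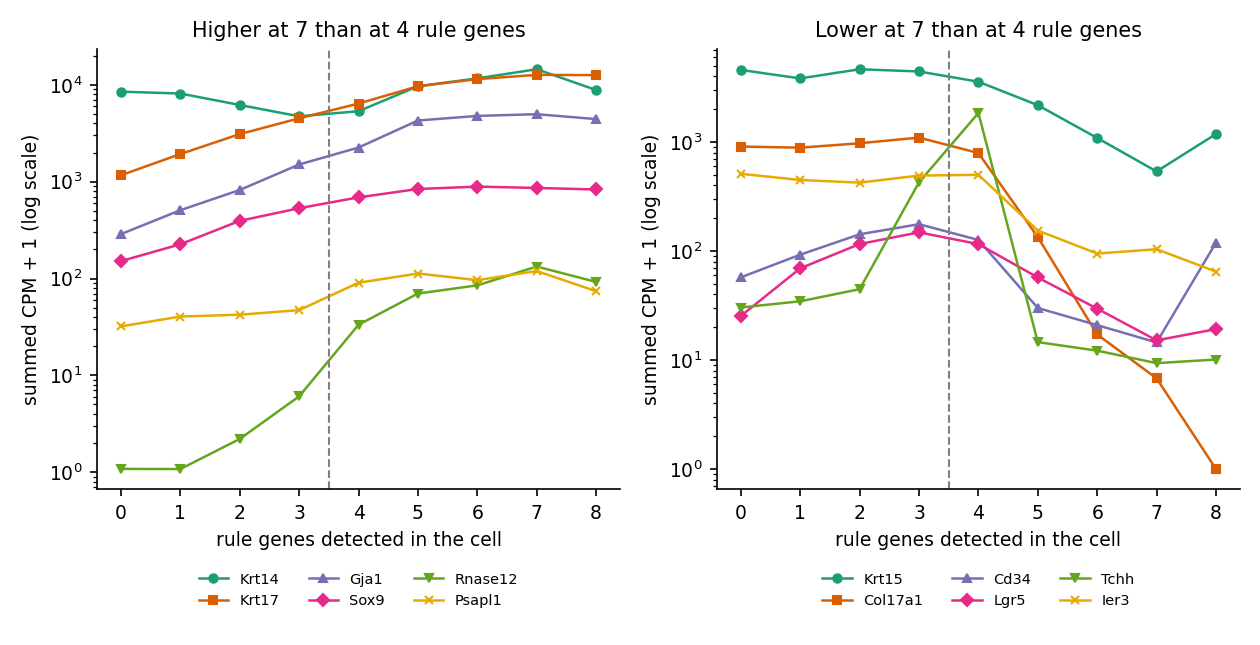
Summed CPM + 1 (log axis) of 12 genes in epithelial cells grouped by how many of the 8 rule genes they held, with the dashed line at the limit for members; cells of the inner root sheath and contractile classes are left out. Krt14, Krt17 and Gja1 were higher at 7 than at 4 rule genes, Col17a1 went from 792 CPM at 4 to 5.79 CPM at 7, and Tchh peaked at 4.

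Cells with Krt75 were a minority of the members. Of the 83 such cells, 27 had at least 3 Krt75 UMIs and held 93.2% of the 906 Krt75 UMIs of the members, and 44 of the 83 held exactly 4 rule genes. Their number was 3, 1, 6 and 16 in PBMCsec libraries 1 to 4 and 2, 38 and 17 in vehicle libraries 2 to 4. Tchh, which encodes trichohyalin of the inner root sheath and medulla, was at 4305 CPM in the Krt75 cells and 12.1 CPM in the 587 members without Krt75, and it was higher in 5 of 5 libraries that had at least 3 Krt75 cells. A Tchh UMI was found in 23 of the 83 cells with Krt75, and 11 of them had at least 3 UMIs of each gene. Tchh was also found in 60 of the 587 members without Krt75. Gpnmb, Csta1 and the transcription factor gene Foxq1 had 1666 against 1.28 CPM, 1282 against 1.83 CPM and 526 against 5.87 CPM, higher in 4, 4 and 5 of the 5 libraries. In the other direction, Krt14 had 4937 against 10823 CPM and Sprr1a 4.95 against 95.9 CPM. A Wfdc18 UMI was found in 18 of the 83, and Krt75 was found in 5.07% of members with Wfdc18 and 20.6% of members without it. Both genes are in the rule, so a cell without the first needed others to enter, and this relation is partly set by the choice of cells. Median depth was 9402 UMIs in members with Krt75 and 9159 UMIs in those without.

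The members made up a lower mean share of the cells after PBMCsec, but the shares of the groups overlapped. Their number was 37, 14, 59 and 126 in PBMCsec libraries 1 to 4 and 2, 23, 236 and 173 in vehicle libraries 1 to 4. As a share of all cells past the limits this was 3.43%, 2.65%, 2.33% and 7.88% after PBMCsec and 0.629%, 5.62%, 8.13% and 9.91% after vehicle. The means were 4.07% ± 2.58 (SD, n = 4 mice) and 6.07% ± 4.03 (SD, n = 4), a difference of -2.01 percentage points that was within the spread between mice (exact two-sided permutation test over 70 labellings, p = 0.371). As a share of epithelial cells the means were 9.34% ± 3.75 and 11.3% ± 6.20 (exact permutation test, p = 0.60). The p adjusted over both comparisons was 0.60 for each, and the smallest p that 70 labellings can give is 0.0286. Living cells were sorted before loading, which can set such shares. PBMCsec library 4 had the highest share of its group and vehicle library 1 the lowest of its own. Without vehicle library 1 the difference was -3.82 points of all cells (exact permutation p = 0.114), and without PBMCsec library 4 it was -3.27 points (p = 0.229 by the same exact test). Without vehicle library 4 it was -0.73 points (exact permutation p = 0.686). With 1 library left out, the exact test cannot give a two-sided p under 0.05.

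**Figure D4:**
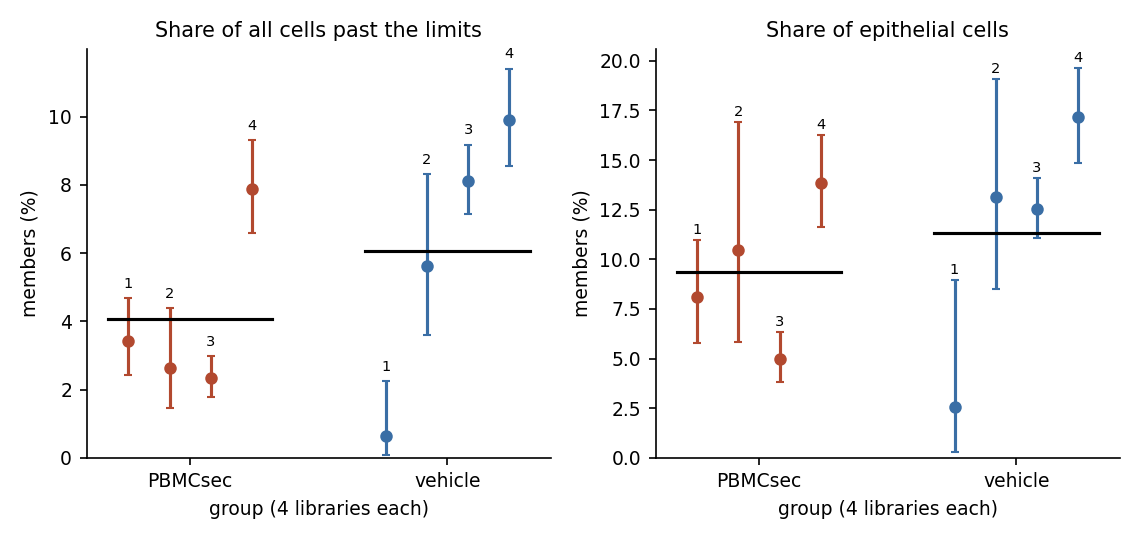
Members as a percentage of all cells past the quality limits (left) and of epithelial cells (right), 1 point per library with its number, exact 95% binomial intervals as error bars and the group mean as a black line. The 4 PBMCsec libraries lay between 2.33% and 7.88% of all cells and the 4 vehicle libraries between 0.629% and 9.91%.

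Expression after PBMCsec was compared with vehicle within the members, on counts summed per library, with 4 PBMCsec libraries and the 3 vehicle libraries that had at least 10 members. No gene passed the test across all genes. By edgeR (quasi-likelihood, p adjusted by Benjamini-Hochberg), 0 of 6692 genes were called higher (0.0%) and 0 lower (0.0%), with a smallest adjusted p of 0.203. At an unadjusted p under 0.05 there were 288 genes higher (4.3%) and 121 lower (1.81%), and the libraries of the groups did not overlap for 234 genes that were higher (3.5%) and 180 that were lower (2.69%). The median log2 fold change over all genes tested was 0.017. The count depended on the tool, on the filter on low counts and on 1 library. DESeq2 called 17 genes higher and 5 lower of 6432 with an adjusted p (0.264% and 0.0777%), and without PBMCsec library 4 edgeR called 82 higher and 9 lower. Without that filter, 181 of 15585 genes were called higher and 42 lower.

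The genes named here are the 5 with the highest and the 5 with the lowest log2 fold change among genes at a mean of 50 CPM or more whose groups did not overlap. In CPM scaled by TMM factors, Ier3, an immediate early gene that is switched on by stress and NF-κB, was at 734, 1445, 655 and 227 in PBMCsec libraries 1 to 4 and at 13.8, 117 and 70.7 in vehicle libraries 2 to 4. Its log2 fold change was 3.29 ± 0.58 (SE) with an edgeR adjusted p of 0.203. Nfkbia, which encodes the NF-κB inhibitor IκBα, was at 737, 638, 292 and 85.05 after PBMCsec and 36.7, 58.8 and 51.3 after vehicle (log2 fold change 3.04 ± 0.59). Phlda1 was at 165, 197, 108 and 53.0 after PBMCsec and 9.18, 28.6 and 9.39 after vehicle (log2 fold change 2.71 ± 0.49). In all 3 genes PBMCsec library 4 lay nearest to the vehicle libraries. Defb6, a beta-defensin gene, had a log2 fold change of 4.56 ± 1.08, with PBMCsec library 2 at 685 CPM against 25.1, 44.2 and 94.3 in the other PBMCsec libraries, and vehicle libraries lay between 5.63 and 18.4. Without PBMCsec library 2 this log2 fold change was 3.00 (edgeR adjusted p = 0.30). In members with exactly 4 rule genes Defb6 was at 45.8, 1049, 20.01 and 293 CPM in PBMCsec libraries 1 to 4 and at 14.2 and 13.6 in vehicle libraries 3 and 4. In those with at least 5 the groups overlapped, with 0, 0, 58.8 and 13.8 CPM after PBMCsec and 0, 2.98 and 3.11 after vehicle. Gm12840 was at 198, 604, 51.9 and 16.0 CPM after PBMCsec and 9.18, 14.3 and 6.88 after vehicle. The groups of this gene also did not overlap, and were higher after PBMCsec, in the outer root sheath and bulge class (means of 93.4 and 11.4 CPM) and in fibroblasts (127 and 48.7 CPM).

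The 5 lowest genes included Sorbs2 and Lrat, which are among the 20 leading genes of the members. Psapl1, which encodes a protein related to prosaposin, was at 16.8, 61.1, 59.6 and 41.3 CPM after PBMCsec and 138, 133 and 158 after vehicle (log2 fold change -1.73 ± 0.31, edgeR adjusted p = 0.203). Sorbs2 was at 44.7, 20.4, 42.3 and 88.4 CPM after PBMCsec and 184, 114 and 200 after vehicle (log2 fold change -1.54 ± 0.34). Lrat had a log2 fold change of -1.22 ± 0.36. Sema6a, a transmembrane semaphorin gene, had one of -1.19 ± 0.44, with PBMCsec library 3 at 90.3 CPM just under the vehicle range of 90.5 to 98.3. Adgrf4, an adhesion G protein-coupled receptor gene, was at 58.6, 54.3, 76.9 and 66.5 CPM after PBMCsec and 184, 122 and 149 after vehicle. Its groups also did not overlap in the outer root sheath and bulge class (means of 1.26 and 12.0 CPM) and in the suprabasal class (48.2 and 62.9 CPM), both lower after PBMCsec. DESeq2 called Ier3, Nfkbia, Phlda1, Psapl1, Sorbs2 and Adgrf4 with adjusted p of 0.0172, 0.0172, 2.3e-05, 0.00209, 0.0172 and 0.0449.

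Of the lists, that of immediate early and heat shock genes had the highest median log2 fold change. All 21 of its genes were tested and all 21 had a positive log2 fold change. Of these, 19 had an unadjusted p under 0.05, where 4.3% of all genes tested were higher at such a p. The groups did not overlap for 5, where 3.5% of all genes tested were higher without overlap. By edgeR, 0 were called after adjustment. This median was 1.47, against 0.017 over all genes tested. The lists were written with earlier results of these data known, so this is no independent evidence of a direction. Fos was at 1301, 577, 356 and 142 CPM after PBMCsec and 64.2, 260 and 100.1 after vehicle, and the groups overlapped. Atf3 had a log2 fold change of 3.00 ± 0.87, Zfp36 of 2.76 ± 0.76 and Junb of 1.74 ± 0.41. The heat shock genes Hspa1a and Hspa1b had 1.88 and 1.57. Summed over the list, the members held 18583, 15367, 11557 and 6527 CPM after PBMCsec and 5629, 8225 and 5990 CPM in vehicle libraries 2 to 4, and the groups overlapped, since PBMCsec library 4 lay under vehicle library 3. The other epithelial cells held 18850, 16644, 20491 and 10282 CPM after PBMCsec and 13226, 19279, 13968 and 13940 CPM after vehicle, and there too the groups overlapped. Such genes are known to respond to tissue dissociation as well as to signals in vivo. The median mitochondrial share of the members was 5.64%, 5.39%, 4.999% and 4.48% after PBMCsec and 4.37%, 4.19% and 4.76% after vehicle, and its part in the result was not tested.

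**Figure D5:**
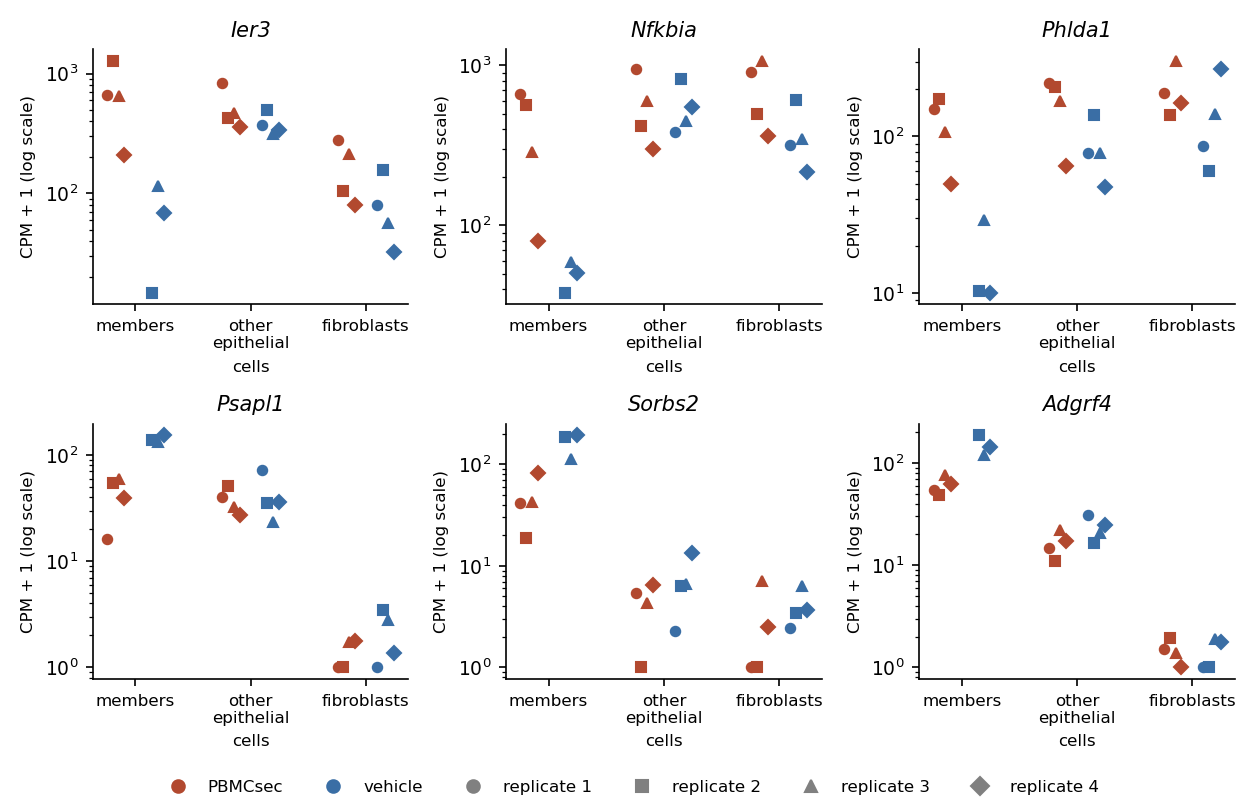
CPM + 1 (log axis, scaled to the library total alone) of 3 genes with higher and 3 with lower levels after PBMCsec, in the members, all other epithelial cells and fibroblasts; colour gives the group and the symbol the library number, for classes with at least 10 cells in the library. The genes were chosen because their groups did not overlap in the members, so overlap in the other cells, as for Ier3, Nfkbia and Phlda1, is no test of a difference between cell classes.

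The promoters of Ier3 and Nfkbia are shown because both genes had higher levels after PBMCsec in 4 of 4 libraries and hold a match to the NF-κB motif (10 letters, both strands). That motif was in 8.46% of the 32851 promoters, in all 3 promoters found for the 5 genes with the highest fold change (Defb6, Ier3 and Nfkbia), and in 0 of the 7 found for the rule genes. Capitals mark the match, 92 bases before the RefSeq start in Ier3 (GRCm38.p6, chr17:35821463-35821762, plus strand) and 29 bases before it in Nfkbia (chr12:55492598-55492897, minus strand), both printed 5′ to 3′ on the strand of the gene. A match is a description of the letters and not a binding site. The 3 genes were picked by their change in these data, and none was called by edgeR. Enrichment of the motif was not tested, and 3 promoters are too few to read one from these counts. The AP-1 motif TGANTCA, in 7.81% of all promoters, and the CRE motif TGACGTCA, in 1.79%, were in 0 of these 3 promoters.
Ier3: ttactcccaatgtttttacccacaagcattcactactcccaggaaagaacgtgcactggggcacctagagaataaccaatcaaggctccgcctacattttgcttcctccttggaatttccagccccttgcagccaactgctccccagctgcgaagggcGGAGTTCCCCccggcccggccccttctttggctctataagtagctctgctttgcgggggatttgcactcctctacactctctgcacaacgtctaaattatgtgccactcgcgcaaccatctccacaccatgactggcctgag
Nfkbia: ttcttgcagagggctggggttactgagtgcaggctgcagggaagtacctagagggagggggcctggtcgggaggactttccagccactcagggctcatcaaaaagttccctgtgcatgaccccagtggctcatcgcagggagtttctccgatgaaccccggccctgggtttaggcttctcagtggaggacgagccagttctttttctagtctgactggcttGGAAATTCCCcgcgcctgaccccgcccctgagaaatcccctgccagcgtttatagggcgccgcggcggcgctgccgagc

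Counts of the other lists are read against those over all genes tested, of which 3511 of 6692 had a positive log2 fold change, and 4.3% were higher and 1.81% lower at an unadjusted p under 0.05. Groups that did not overlap were found for 3.5% of all genes tested on the higher side and 2.69% on the lower side. Of 7 interferon response genes tested, all 7 had a positive log2 fold change (median 0.996) and 4 had an unadjusted p under 0.05, among them Ifi27l2a and Psmb9 with 1.95 and 1.28. Of 8 outer root sheath and bulge genes tested, 7 were higher and 3 had an unadjusted p under 0.05, namely Cd34 (log2 fold change 1.40), Krt15 (1.04) and Grem1 (2.13). Of 7 basal epidermis genes, 4 were higher at an unadjusted p under 0.05 with groups that did not overlap, namely Col17a1 (1.43), Krt15 again, Itgb4 (0.81) and Itga6 (0.68), and Krt14 was lower at such a p (-0.44). Of 13 desmosome and junction genes, 9 were lower and 2 had an unadjusted p under 0.05, Gja1 (-0.43) and Gjb6 (-0.89). Of 10 circadian clock genes tested, 8 were higher with a median of 0.072, and Bhlhe40 and Per1 had 2.48 and 1.64. Of 17 protease and matrix genes tested, 14 were higher and 3 (Ecm1, Fn1 and Adamts1) had an unadjusted p under 0.05. None of the 8 rule genes was called, and their log2 fold changes lay between -0.75 (S100a1) and 0.63 (Krt75), values that the choice of cells can set.

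The mix of members differed between the libraries. Cells with exactly 4 rule genes made up 51.4%, 57.1%, 39.0% and 26.2% of the members in PBMCsec libraries 1 to 4 and 13.04%, 34.3% and 24.3% in vehicle libraries 2 to 4, and the groups overlapped. Krt15 was at 4668, 2225, 3292 and 2273 CPM after PBMCsec and 1794, 1797 and 967 after vehicle, so the groups did not overlap. When members with at least 5 rule genes alone were used, which left 3 PBMCsec and 3 vehicle libraries with at least 10 such cells, the log2 fold change was 1.41 for Ier3, 1.88 for Nfkbia, 1.36 for Phlda1, 0.57 for Cd34, 0.51 for Col17a1 and 1.31 for Krt15, where all members gave 1.04, and it was -1.42 for Psapl1, -1.18 for Sorbs2 and -0.94 for Adgrf4, with 0 genes called. In members with exactly 4 rule genes Ier3 had a mean of 1192 CPM ± 569 (SD, n = 4) after PBMCsec, and it was at 106 and 130 CPM in vehicle libraries 3 and 4. In members with at least 5 it was at 300, 550, 176 and 113 CPM in PBMCsec libraries 1 to 4, of which library 2 held 6 such cells, and at 11.3, 120 and 50.5 CPM in vehicle libraries 2 to 4. Rnase12 was at 0 in the cells with exactly 4 rule genes of all 4 PBMCsec libraries and at 63.3 and 57.0 CPM in those of vehicle libraries 3 and 4. The part of the mix of cells in the differences between the groups was not tested.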

How the data were processed

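Dorsal skin of 8 mice was measured by 10x Genomics 3′ single-cell RNA-seq, 1 library per mouse. The authors deposited, for each barcode called as a cell, raw UMI counts of 31053 genes, made with Cell Ranger (3.0.2 in the submitters' processing notes and file headers) on mm10. No doublet caller was used here. The paper's limits were applied, with a mitochondrial limit of 10% in place of 5%, and Gm42418, Gm17056 and Gm26917 were removed. The members, gene lists and tests were chosen with earlier results of these data known. Epithelial cells held at least 4 of 10 epithelial genes, and other classes were set by marker counts. Sums per library went into the quasi-likelihood test of edgeR 4.0.16 (TMM factors, filterByExpr, Benjamini-Hochberg adjusted p under 0.05), with DESeq2 1.42.0 beside it. Named genes were the 8 rule genes, the 20 highest and 10 lowest ratios to other epithelial cells at 50 CPM or more in the same direction in every library, the 5 largest treatment changes per direction without overlap, and list members named for their role. On simulated counts for PBMCsec against vehicle (6692 genes, 4 against 3 libraries) edgeR called 96.7% of genes changed by 2 on the log2 scale and 33.0% of those changed by 1, with 12 false calls among 136. The simulated spread was drawn from edgeR's own estimates. In the data, genes with log2 fold changes from 2.71 (Phlda1) to 4.56 (Defb6) were not called. These rates hold for the simulated counts alone and do not show that such changes are absent from the data. Total UMIs per library lay between 14753926 and 37880651. Positions are from GENCODE M21 and promoters from RefSeq. Mice are the replicates. R 4.3.3, Python 3.11.15, scipy 1.17.1, numpy 2.4.6, pandas 2.3.3 and matplotlib 3.10.9 were used. The genes of the junction list that were lower in the members are not reported here.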

Additional observations from a re-analysis of the deposited data

Results flagged for a closer look

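Defb6 was at 685 CPM (TMM-scaled) in the members of PBMCsec library 2, far from the 25.1 to 94.3 CPM of the other 3 PBMCsec libraries. It was the value that stood apart by Dixon's criterion among 31 groups of 4 libraries examined, and chance alone gives about 1 in 20. Its level there was 1049 CPM in the cells with exactly 4 rule genes, the edge of the rule, and 0 in those with at least 5. The library held 14 members, the fewest of the 7 libraries tested.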

How the results depend on the processing

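Both differences in share stayed negative under all 14 alternatives each, from -3.82 to -0.73 points of all cells (exact permutation p from 0.114 to 0.686) and from -4.94 to -0.08 points of epithelial cells, and none passed the test. With replicate numbers as pairs they were -2.01 and -2.01 points (exact sign-flip permutation p = 0.375 and 0.50). A sign-flip test on 4 pairs cannot give a two-sided p under 0.05, so this alternative could not have passed. Nor could the alternatives that left out 1 library, since 4 against 3 libraries give too few labellings for such a p. The counts of genes called by edgeR, 0 higher and 0 lower, became 181 and 42 with no filter on low counts, 17 and 5 with DESeq2, 1 and 0 with at least 3 rule genes, 3 and 0 with members thinned to 2000 UMIs, and 3 and 0 with all 8 libraries. Leaving out 1 library gave 0 to 82 higher and 0 to 9 lower, with both highest counts without PBMCsec library 4. With the replicate block on numbers 2 to 4 the counts were 6 and 3. The correlation of deviations of equal numbers was 0.0547, 0.17 and 0.313 for numbers 2, 3 and 4 (across genes, which are not independent replicates). For unequal numbers it lay between -0.269 and 0.112. These values do not settle whether equal numbers are pairs, and the main test used no block. Removing members with a Krt75 UMI, chosen after seeing the data, gave 0 and 0, and so did the 5% mitochondrial limit, at least 5 rule genes, removal of fibroblast RNA, another size factor (RLE) and a minimum of 20 members. None of the 10 named treatment genes turned its direction, in 17 to 20 alternatives each. They were chosen because their groups did not overlap, so this was largely set by the choice and is no test. Their adjusted p (edgeR or DESeq2) ranged from 3.44e-29 to 1.0 for Ier3, 1.41e-22 to 1.0 for Nfkbia, 1.31e-13 to 1.0 for Phlda1, 1.12e-07 to 0.871 for Psapl1, 1.2e-06 to 1.0 for Sorbs2 and 0.000969 to 1.0 for Adgrf4. The lowest came from edgeR with no filter on low counts. That fit gave Ier3 a log2 fold change of 3.19, where the main fit gave 3.29 with an edgeR adjusted p of 0.203. Its low p are therefore not read as stronger evidence. Their log2 fold changes ranged from 1.41 to 3.84 for Ier3, 1.72 to 3.40 for Nfkbia, 1.23 to 3.66 for Phlda1, 1.59 to 4.96 for Defb6, 2.67 to 4.64 for Gm12840, -1.95 to -1.18 for Psapl1, -2.06 to -1.18 for Sorbs2, -1.50 to -0.91 for Lrat, -2.06 to -0.72 for Sema6a and -1.43 to -0.94 for Adgrf4. With at least 3 rule genes Ier3 was at 1.70, Nfkbia at 1.72, Phlda1 at 1.23 and Defb6 at 1.59. The share of members with a Krt75 UMI fell from 12.4% to 5.41% on thinning. Of the 20 leading genes, 18 stayed higher in the members in all 7 libraries on thinning and 20 in the 6 libraries left by the 5% limit, and 16 stayed among the top 20 in each. The causes of these changes were not tested. The members of 14 to 37 cells in PBMCsec libraries 1 and 2 and vehicle library 2 limit the precision of their values.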
